A study of Mus musculus with 6 samples.

Results

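The genes described here are 44 transcripts of the contractile apparatus and the calcium store of striated muscle, chosen by name from the 39174 gene identifiers measured in mouse sciatic nerve. They comprise 31 sarcomeric genes (thick filament, thin filament, Z disc and titin), 6 calcium handling genes, 5 genes of energy and oxygen supply and 2 ankyrin repeat regulators. In the grouping by fibre type used here, 10 count as typical of slow fibres, 16 of fast fibres and 4 of developing or cardiac muscle. The other 14, Sln among them, were not assigned to slow or fast fibres and count as shared. RNA was taken from whole sciatic nerves of 3 wild-type mice (nerves 2, 4 and 5) and 3 Plekhg5-/- mice (nerves 2, 3 and 5), called Plekhg5-deficient below. The animals were adult and 12 months of age. The sources name no strain background, sex or treatment. Levels are FPKM (fragments per kilobase of transcript relative to all mapped fragments), divided by a median-of-ratios factor per library, so that they can be compared between genes per length and between nerves. Read depth is unknown, because the tables hold no counts. No source says that the nerves came from separate litters or days, so p-values measure the spread between these 6 nerves.

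A muscle fibre shortens when myosin heavy chains of the thick filament pull on actin of the thin filament. Troponin and tropomyosin release the filament once calcium leaves the sarcoplasmic reticulum through the ryanodine receptor, and the SERCA pump returns the calcium to the store, where calsequestrin binds it. Slow and fast fibres build the same machine from different isoforms: Myh7, Myl2, Tnnt1, Tnni1 and Tnnc1 in slow fibres, and Myh4, Mylpf, Tnnt3, Tnni2 and Tnnc2 in fast fibres. A peripheral nerve holds no muscle fibres of its own, but lies against muscle along its course.

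A few genes carry the contrasts described below, and their upstream regions are shown for that reason: Myh4, the main fast myosin heavy chain, Myh7, the slow one, and Casq2, the calsequestrin whose level did not go with the other genes. The sequences are the 250 bases before the RefSeq transcript start in GRCm38.p6, 5′ to 3′, and capitals mark matches to 1 of 5 motifs on either strand. The E-box is CANNTG, the site of myogenic factors such as MyoD. The MCAT element is CATTCC, the site of TEAD factors. The TATA motif is TATAAA, and CArG and MEF2 are the sites of serum response factor and MEF2. Myh4 lies on the plus strand (chr11:67237562-67237811), where its window also overlaps an exon of the non-coding gene Myhas, Myh7 on the minus strand (chr14:54994627-54994876) and Casq2 on the plus strand (chr3:102086165-102086414).
Myh4: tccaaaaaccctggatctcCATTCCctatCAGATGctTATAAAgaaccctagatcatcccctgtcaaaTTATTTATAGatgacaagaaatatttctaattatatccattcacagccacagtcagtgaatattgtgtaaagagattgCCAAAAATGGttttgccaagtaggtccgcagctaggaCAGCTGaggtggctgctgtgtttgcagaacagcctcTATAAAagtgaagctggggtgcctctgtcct
Myh7: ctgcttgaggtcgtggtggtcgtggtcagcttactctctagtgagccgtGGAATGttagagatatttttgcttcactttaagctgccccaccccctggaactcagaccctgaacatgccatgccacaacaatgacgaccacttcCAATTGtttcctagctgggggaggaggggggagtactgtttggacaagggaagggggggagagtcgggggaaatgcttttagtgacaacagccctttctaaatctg
Casq2: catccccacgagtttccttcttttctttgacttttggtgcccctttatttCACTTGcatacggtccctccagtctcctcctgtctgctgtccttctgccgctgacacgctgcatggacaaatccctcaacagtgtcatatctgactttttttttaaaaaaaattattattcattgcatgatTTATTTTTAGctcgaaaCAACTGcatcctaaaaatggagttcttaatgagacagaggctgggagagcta
The Myh4 window held 2 E-boxes, 1 MCAT, 3 TATA, 1 CArG and 1 MEF2 match, with 1 TATA match inside the MEF2 match. The Myh7 window held 1 E-box and 1 MCAT match, and the Casq2 window 2 E-boxes and 1 MEF2 match. In the RefSeq promoter table, 36 of the 44 genes were matched, of which 80.6% held an E-box, against 66.0% of 27025 genes in all, each taken at its first listed start. A MCAT element was found in 30.6% of the matched genes and in 12.6% of all genes, the TATA motif in 19.4% against 13.0%, CArG in 13.9% against 1.4% and MEF2 in 16.7% against 3.01%. E-boxes were present upstream of 10 of 10 slow genes and of 9 of 12 fast genes. These matches are letters in a window and were not tested as binding sites.

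The labels were checked first. Plekhg5, the disrupted gene, stood at 3.65, 4.13 and 5.26 FPKM in the wild-type, and nerves 2, 3 and 5 of the deficient mice held 0.141, 0.140 and 0.0521 FPKM (adjusted p = 0.0380, log2 fold change -2.26 from limma). With any 1 of the 6 nerves left out the log2 fold change was -2.35 to -2.14 and the call was lost (adjusted p of 0.0781 to 0.268 from limma). The Schwann cell gene Pmp22 was between 4253 and 9389 FPKM in the 6 nerves. Transcripts of red blood cells stood apart in Plekhg5-deficient nerve 5: all 11 measured erythroid genes were at least 2-fold above every other nerve there, with summed levels of 229900 FPKM against 3976 to 24290 FPKM elsewhere, led by Hba-a1 and Hba-a2. This is also the nerve in which the muscle genes were highest, and the part of its composition in the values below was not tested.

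The amount of muscle transcript differed far more between single nerves than between genotypes. The 44 genes made up 3.46%, 0.615% and 1.98% of the summed FPKM in wild-type nerves 2, 4 and 5, and 0.539%, 0.0731% and 4.62% in Plekhg5-deficient nerves 2, 3 and 5. Plekhg5-deficient nerves thus held both the highest and the lowest share. A similar order, with wild-type nerve 4 and Plekhg5-deficient nerve 2 exchanged, was seen in a pan-fibre reference. This geometric mean of 6 genes used by all fibres (Acta1, Ckm, Neb, Ttn, Tcap and Ryr1) was 130.2, 24.7 and 115.2 FPKM in wild-type and 27.0, 2.14 and 484.4 FPKM in Plekhg5-deficient nerves, a 226.5-fold range. Fewer muscle fibres and less RNA per fibre cannot be told apart in such bulk samples. Of the 44 genes, 42 were highest in Plekhg5-deficient nerve 5, where 22.6% of all 21285 genes tested were highest, and 32 stood at least 2-fold above every other nerve there, against 3.9% of all genes. Actc1 and Mb were highest in wild-type nerve 5 instead. In 41 genes the 95% interval reported by Cufflinks for nerve 5 lay above those of all other nerves, an interval that covers the uncertainty within 1 library alone. Plekhg5-deficient nerve 3 was lowest for 38 of the 44 genes, against 15.5% of all genes. It was also lowest for 9 of 11 erythroid and 9 of 10 adipocyte genes, and the part of this in the muscle values was not tested.

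**Figure D1:**
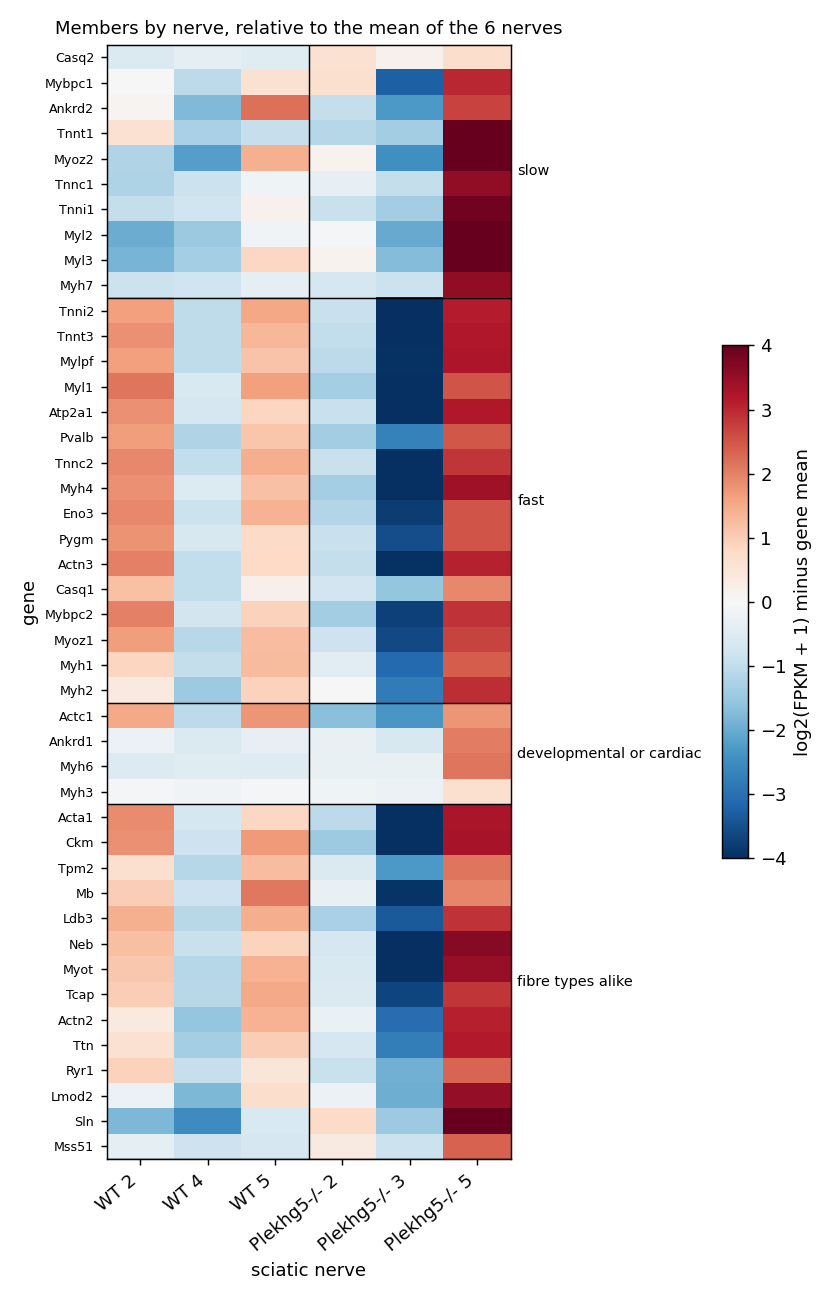
Level of the 44 muscle genes (rows, grouped by fibre type) in each of 3 wild-type (WT) and 3 Plekhg5-deficient nerves (columns), as log2(FPKM + 1) minus the mean of the 6 nerves, with colours limited to -4 and 4. Plekhg5-deficient nerve 5 is highest for 42 genes and Plekhg5-deficient nerve 3 lowest for 38, while Casq2 in the top row varies least among the slow genes.

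Between genotypes, none of the 44 genes passed the test. All 44 reached the required mean of 0.1 FPKM in at least 1 genotype, and with limma on log2(FPKM + 1), 0 were higher and 0 lower at an adjusted p under 0.05 (adjusted p from 0.488 to 0.999). Of all genes, 0.0282% were called higher and 0.0094% lower. At an unadjusted p under 0.05, 1 muscle gene was higher (Casq2) and 0 were lower, against 2.41% and 2.69% of all genes. A log2 fold change above 0 was measured for 16 genes and below 0 for 28, with a median of -0.63 against 0.01 over all genes tested, and standard errors ran from 0.19 to 1.90 against a median of 0.22 over all genes. Without Plekhg5-deficient nerve 5 the median was -1.98, with 38 genes below 0 and 0 called. At an unadjusted p under 0.05 from limma in that fit, 1 of the 44 was higher and 19 lower. Of all genes, 606 were higher and 742 lower, but the number tested in that fit is not given, so these are not shares. The nerve left out was the highest for 42 of the 44 genes, so a shift to lower values came with that choice and is no separate result. Without Plekhg5-deficient nerve 3 the median was 0.58. The direction of the median therefore changed with the nerve left out. Transcripts that the study itself listed from these libraries, among them Sln, Mss51, Myh2, Myh6 and Myh7, are no independent evidence of a direction.

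The thin filament showed the size of this spread. Acta1, skeletal muscle actin, had 4470, 753.1 and 2142 FPKM in wild-type nerves 2, 4 and 5. Plekhg5-deficient nerves 2, 3 and 5 had 581.7, 65.3 and 11590 FPKM. The Plekhg5-deficient nerves lay on both sides of all wild-type nerves, and the log2 fold change was -1.34 with a standard error of 1.79 (adjusted p = 0.980 from limma). Tnni2, the fast troponin that inhibits actomyosin, had 4027, 640.6 and 3782 FPKM in wild-type and 696.2, 61.4 and 11430 FPKM in Plekhg5-deficient nerves, and Tnnt3, the fast troponin that binds tropomyosin, followed the same order of nerves. Actc1, the cardiac actin also used in developing muscle, was 34.2, 4.99 and 41.3 FPKM in wild-type and 2.91, 1.48 and 41.3 FPKM in Plekhg5-deficient nerves, so that it did not share the excess of Plekhg5-deficient nerve 5 over wild-type nerve 5. Tpm2, beta-tropomyosin, kept 73.2 FPKM in Plekhg5-deficient nerve 3, where Neb, the giant protein along the thin filament, was at 2.37 FPKM.

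In the thick filament, Myh3, Myh2, Myh1 and Myh4 lie in a row on chromosome 11 between 67078300 and 67260446, and Myh6 and Myh7 side by side on chromosome 14 between 54941921 and 54994634. Myh4 made up most of the myosin heavy chain transcript in every nerve. Of the summed FPKM of the 6 heavy chains among the members, Myh4 took 91.8%, 89.3% and 83.8% in wild-type nerves 2, 4 and 5, and 71.5%, 73.5% and 88.0% in Plekhg5-deficient nerves 2, 3 and 5. Myh1, the heavy chain of type IIX fibres, took 6.18%, 8.18% and 11.8% in wild-type and 17.0%, 16.8% and 6.10% in Plekhg5-deficient nerves. Plekhg5-deficient nerve 5, with the most muscle transcript, had a Myh4 share within the wild-type range. Myh2, the heavy chain of type IIA fibres, took 10.7% in Plekhg5-deficient nerve 2 and at most 4.27% in the other nerves. The slow heavy chain Myh7 was 0.0182, 0.0767 and 0.40 FPKM in wild-type and 0.169, 0.0270 and 20.8 FPKM in Plekhg5-deficient nerves, 52.1-fold above the next nerve in Plekhg5-deficient nerve 5. Its 95% interval reached 0 in the other 5 nerves, and the intervals of those nerves overlapped. Heavy chain genes are alike in sequence: of the 50-base windows of their transcripts, 26.7% in Myh1, 26.9% in Myh2, 18.9% in Myh4, 22.6% in Myh6 and 22.2% in Myh7 occurred word for word in another gene, so that shares of the minor heavy chains are uncertain. Myh6, the cardiac alpha heavy chain, had 0.152, 0.221 and 0.194 FPKM in wild-type and 0.393, 0.373 and 6.52 FPKM in Plekhg5-deficient nerves, without overlap, but its intervals reached 0 in 5 nerves. Without overlap between genotypes, 2 of the 44 genes (Myh6 and Casq2) were higher in Plekhg5-deficient nerves and 0 lower, against 5.69% and 5.88% of all genes.

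**Figure D2:**
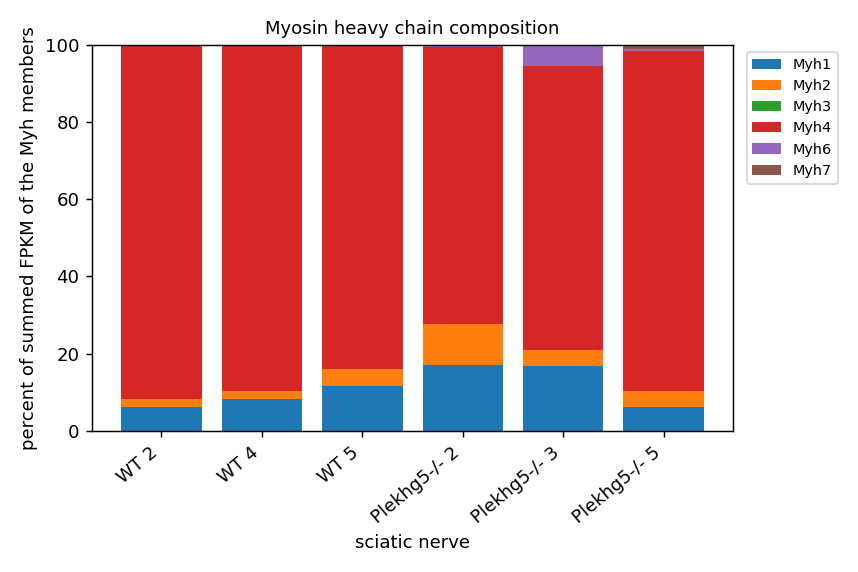
Share of each of 6 myosin heavy chain genes in their summed FPKM (vertical axis, percent) in each nerve (bars), WT standing for wild-type. Myh4 is the largest share in every bar, from 71.5% in Plekhg5-deficient nerve 2 to 91.8% in wild-type nerve 2.

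Slow and fast genes differed in how far Plekhg5-deficient nerve 5 stood out. The 10 slow genes had a median log2 fold change of 1.20, with 9 above 0, and the 16 fast genes a median of -1.31, with 1 above 0 (Myh2), whereas 51.1% of all genes were above 0. None of either group passed the test. Without Plekhg5-deficient nerve 5 the medians were -0.29 for slow and -3.18 for fast genes, and without Plekhg5-deficient nerve 3 they were 2.09 and 0.36. Outside Plekhg5-deficient nerve 5, slow genes had median levels per nerve of 0.795 to 6.42 FPKM and fast genes of 7.80 to 450.9 FPKM. The 1 FPKM added before taking logs understates changes of genes this low, so slow and fast medians are not strictly comparable. Plekhg5-deficient nerve 5 exceeded the next highest nerve by a median of 11.4-fold over the slow genes, with values from 1.07-fold (Casq2) and 1.41-fold (Ankrd2) to 64.3-fold (Myl2). Over the fast genes the median was 2.07-fold, from 1.29-fold (Myl1) to 4.32-fold (Myh2), so that Casq2 lay below and Ankrd2 within the fast range. Myl2, the slow regulatory light chain, was 0.518, 1.12 and 4.36 FPKM in wild-type and 4.74, 0.464 and 304.4 FPKM in Plekhg5-deficient nerves. Its fast counterpart Mylpf was 2934, 461.0 and 2085 FPKM in wild-type and 456.3, 59.8 and 8796 FPKM in Plekhg5-deficient nerves. Tnni1 and Tnnt1, the slow troponins I and T, were 15.2-fold and 12.5-fold above the next nerve. Fast genes remained far more abundant than slow genes in this nerve, with summed levels of 44800 against 1142 FPKM.

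A ratio of a slow isoform to its fast counterpart within a nerve does not depend on the scaling between libraries. Of 9 such pairs, 8 could be tested, because Myl3 was listed at 0 in wild-type nerve 2. In all 8 the mean log2 ratio was higher in Plekhg5-deficient nerves, and in 5 the genotypes did not overlap. Per 1000 FPKM of Mylpf, Myl2 had 0.177, 2.43 and 2.09 FPKM in wild-type and 10.4, 7.75 and 34.6 FPKM in Plekhg5-deficient nerves, with the genotypes apart (difference of 3.87 in log2, exact two-sided permutation p = 0.1, 0.16 after adjustment over the 8 tested pairs). The 95% interval of Myl2 reached 0 in wild-type nerves 2 and 4 and in Plekhg5-deficient nerve 3, so that the separation of the last from wild-type nerve 4 rests on values not clearly above 0. Per 1000 FPKM of Myh4, Myh7 had 0.0366, 0.799 and 1.26 FPKM in wild-type and 3.09, 5.11 and 14.2 FPKM in Plekhg5-deficient nerves, again without overlap, although each of these Myh7 values except that of Plekhg5-deficient nerve 5 came with an interval down to 0. Troponin C, the calcium sensor of the thin filament, also did not overlap: per 1000 FPKM of Tnnc2, Tnnc1 had 5.30, 57.8 and 18.1 FPKM in wild-type and 83.5, 618.7 and 102.5 FPKM in Plekhg5-deficient nerves. Outside Plekhg5-deficient nerve 5, Tnnc1 itself ran from 2.98 to 7.33 FPKM. Tnnc2 was 6.31 FPKM in Plekhg5-deficient nerve 3 and 73.9 to 1075 FPKM elsewhere, so that the ratio of 618.7 came with a low Tnnc2. Likewise, Tnnt1 was 2.84 and 3.14 FPKM in Plekhg5-deficient nerve 3 and wild-type nerve 4, where Tnnt3 was 49.9 and 505.3 FPKM. A slow gene that stays level gives a higher ratio where its fast counterpart is low. Of Tnnc2 windows, 55.0% lie antisense to Ube2c, and of the 44 genes 7 share at least 5% of windows with an antisense gene, including Mb (34.0%), Atp2a1 (18.2%, with Rabep2) and Ckm (11.7%). Whether reads were assigned by strand is not stated, so that reads of these partners cannot be told apart. Tnnt1 to Tnnt3 and Mybpc1 to Mybpc2 were the other pairs without overlap, and each of the 5 had an exact permutation p of 0.1, while Tnni1 to Tnni2 (exact permutation p = 0.2), Myoz2 to Myoz1 (p = 0.2) and Casq2 to Casq1 (p = 0.3) overlapped. With 3 nerves against 3 an exact test cannot go below 0.1, so that no pair could pass a threshold of 0.05. The pairs share nerves and are not independent of one another, and wild-type nerve 2 had the lowest ratio in 7 of the tested pairs.

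**Figure D3:**
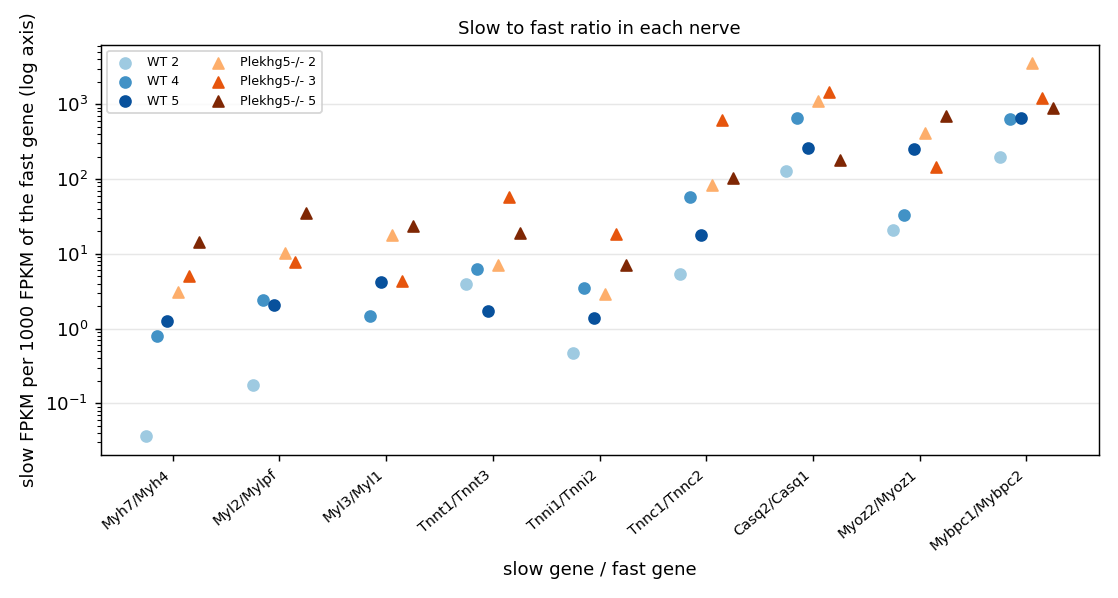
FPKM of a slow gene per 1000 FPKM of its fast counterpart (log axis) for 9 pairs, in each of 3 wild-type (WT, circles) and 3 Plekhg5-deficient nerves (triangles); Myl3 is listed at 0 in wild-type nerve 2 and not drawn there. The triangles lie above all circles in 5 of the 8 pairs tested, among them Myl2 to Mylpf with 7.75 to 34.6 against 0.177 to 2.43.

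A pair of nerves with nearly the same amount of muscle transcript showed the contrast without Plekhg5-deficient nerve 5. Wild-type nerve 4 and Plekhg5-deficient nerve 2 had 24.7 and 27.0 FPKM of the pan-fibre reference and 70.8 and 70.5 FPKM as the geometric mean of the fast genes. Between these single nerves, the fast genes had a median ratio of 0.998 and the slow genes of 2.83, with Myoz2, a slow Z disc protein that binds calcineurin, 15.3-fold higher in Plekhg5-deficient nerve 2. The fast ratios ran from 0.567 (Myh4) to 3.52 (Myh2), and the 14 shared genes had a median of 1.47. Ratios above 1 were found for 9 of 10 slow, 8 of 16 fast and 11 of 14 shared genes, so that they were not limited to slow genes. Myl3 had 0.416 and 2.99 FPKM and Myl2 1.12 and 4.74 FPKM in these nerves, and the intervals of Myl3, Myl2 and Myh7 reached 0 in wild-type nerve 4. Tnni1, at 2.24 and 1.99 FPKM, and Tnnt1, at 3.14 and 3.64 FPKM, had ratios of 0.888 and 1.16. These are 2 nerves chosen after their values were seen, with no replicate check.

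Among the calcium handling genes, Sln differed most between nerves of like muscle content. Sln, on chromosome 9 from 53850251 to 53853844 of GRCm38, encodes sarcolipin, a small inhibitor of the SERCA pump. It was 0.834, 0.113 and 3.19 FPKM in wild-type nerves 2, 4 and 5. Plekhg5-deficient nerves 2, 3 and 5 had 9.97, 1.35 and 308.8 FPKM. The genotypes overlapped only in Plekhg5-deficient nerve 3, the nerve with the least muscle transcript, which lay below wild-type nerve 5. Its log2 fold change was 3.29 with a standard error of 1.68 (adjusted p = 0.974 from limma) and 1.31 without Plekhg5-deficient nerve 5. The 95% intervals of Sln were 7.85 to 12.1 FPKM in Plekhg5-deficient nerve 2 and 0 to 0.338 FPKM in wild-type nerve 4, apart but with the lower one reaching 0, so that no fold is given. Atp2a1, the SERCA pump of fast fibres that sarcolipin acts on, was 1902, 334.0 and 961.7 FPKM in wild-type and 287.5, 25.5 and 4932 FPKM in Plekhg5-deficient nerves, in the same order of nerves as Acta1 and Myh4. Ryr1, the calcium release channel, ran from 0.0987 to 19.9 FPKM with the same nerves at both ends.

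Casq2 was the exception in the other direction. It lies on chromosome 3 from 102086415 to 102146514, encodes the calsequestrin of cardiac and slow muscle and was 22.8, 25.9 and 24.1 FPKM in wild-type and 52.3, 38.3 and 55.9 FPKM in Plekhg5-deficient nerves, 24.3 ± 1.54 against 48.8 ± 9.26 (SD, n = 3 each). All 3 Plekhg5-deficient nerves were above all wild-type nerves, although the pan-fibre reference ranged over 226.5-fold. Such a separation upward was found for 2 of the 44 genes and for 5.69% of all genes, so that it does not set the 44 apart. The log2 fold change was 0.96 with a standard error of 0.19, the smallest error of the 44 genes, and 0.86 without Plekhg5-deficient nerve 5, but it did not pass the test over all genes (unadjusted p = 0.00179, adjusted p = 0.488 from limma). Casq1, the fast calsequestrin, was 180.4, 39.7 and 92.1 FPKM in wild-type and 47.0, 26.6 and 306.5 FPKM in Plekhg5-deficient nerves, and overlapped. In Plekhg5-deficient nerve 3, Casq1 and the calcium buffer Pvalb kept 26.6 and 68.4 FPKM where Ryr1 stood at 0.0987 FPKM. As a group, the 6 calcium handling genes had -0.29 as their median log2 fold change and the 31 sarcomeric genes -0.76, with none of either called. Without Plekhg5-deficient nerve 5 these medians were -1.42 and -2.16, and without Plekhg5-deficient nerve 3 they were 0.52 and 0.69; the calcium handling median also turned above 0 without wild-type nerve 2 (0.16) or Plekhg5-deficient nerve 2 (0.04).

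**Figure D4:**
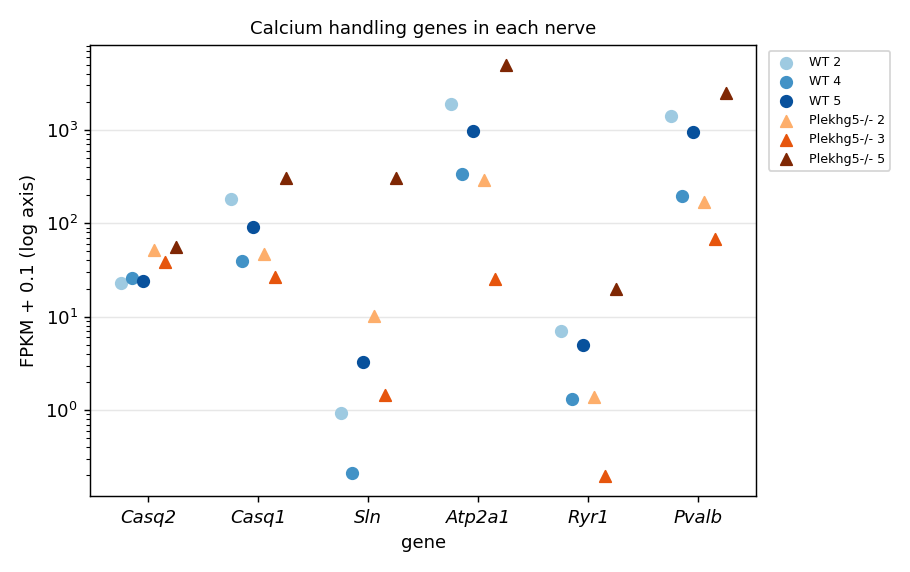
FPKM plus 0.1 (log axis) of the 6 calcium handling genes in each of 3 wild-type (WT, circles) and 3 Plekhg5-deficient nerves (triangles). Casq2 lies between 22.8 and 55.9 FPKM with the genotypes apart, while Atp2a1 spans 25.5 to 4932 FPKM with Plekhg5-deficient nerves at both ends.

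Divided by the pan-fibre reference of the same nerve, 9 genes were higher in all Plekhg5-deficient than in all wild-type nerves (Myh6, Myh7, Myl2, Tnnt1, Tnnc1, Sln, Mss51, Lmod2 and Ankrd1) and 3 were lower (Myl1, Tnnc2 and Ckm), where 0.521% and 0.465% of all genes tested did so. These shares are no base rate for muscle genes. A gene that does not go with muscle content varies in this ratio mainly with the reference. The reference was highest and lowest in Plekhg5-deficient nerves, so the genotypes of such a gene tend to overlap. No test was made of these levels, the intervals of Myh6, Myh7, Myl2, Sln and Ankrd1 reached 0 in at least 1 nerve, and of the 6 reference genes Ckm alone separated the genotypes. The study had already named Myh6, Myh7, Myl2, Sln, Mss51 and Lmod2 as upregulated in these same libraries. Their separation here is therefore no independent evidence of a direction. Sln had the widest gap: its log2 level relative to the reference was -7.29, -7.78 and -5.18 in wild-type and -1.44, -0.67 and -0.65 in Plekhg5-deficient nerves, with the lowest Plekhg5-deficient nerve 13.4-fold above the highest wild-type nerve. Lmod2, leiomodin, which nucleates actin filaments, had relative levels of -5.40, -6.01 and -4.09 in wild-type and -3.15, -3.14 and -3.16 in Plekhg5-deficient nerves. Mss51, a mitochondria-associated protein of skeletal muscle, had 0.833, 0.349 and 0.498 FPKM in wild-type and 2.04, 0.308 and 11.3 FPKM in Plekhg5-deficient nerves, and levels relative to the reference of -7.29, -6.14 and -7.85 against -3.73, -2.80 and -5.42. Ckm, muscle creatine kinase, was lower by 0.60 in log2 relative to a reference that contains it. Of the 50-base windows of Myl1, 23.4% occur word for word in another gene, Mylf-ps, so that its level is uncertain. The values of Plekhg5-deficient nerve 3 rest on a reference of 2.14 FPKM: Tnnt1 and Tnnc1 had 2.84 and 3.90 FPKM there, close to the 3.14 and 4.27 FPKM of wild-type nerve 4, whose reference was 24.7 FPKM. With Acta1 alone as reference, 11 genes were higher and 2 lower, and with the fast genes 10 and 2; Tnnc2 and Ckm were not among the lower genes under either.

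**Figure D5:**
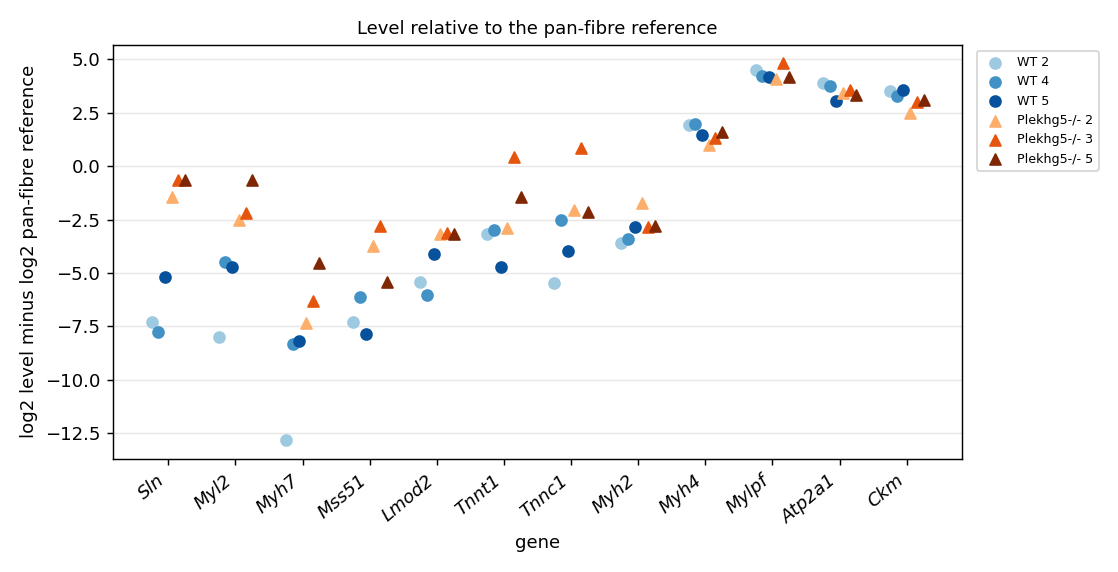
Log2 level minus the log2 pan-fibre reference of the same nerve (vertical axis) for 12 genes in 3 wild-type (WT, circles) and 3 Plekhg5-deficient nerves (triangles). Sln lies between -1.44 and -0.65 in Plekhg5-deficient and between -7.78 and -5.18 in wild-type nerves, whereas Mylpf lies between 4.08 and 4.80 over all nerves.

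Other genes of the same machinery, from lists outside the 44, were distributed over the nerves in a similar way. Of 32 further sarcomere genes, 32 were highest in Plekhg5-deficient nerve 5 and 28 lowest in Plekhg5-deficient nerve 3, with 0 called in either direction, 0 at an unadjusted p under 0.05 and a median log2 fold change of -0.47. The most abundant, Tpm1 (alpha-tropomyosin) and Fhl1, had 3213 and 285.2 FPKM in Plekhg5-deficient nerve 5 and at most 1811 and 169.6 FPKM elsewhere. Of 19 further calcium handling genes, 16 were highest in Plekhg5-deficient nerve 5 and 0 were called by limma, also at an unadjusted p under 0.05, and of 16 further genes of muscle metabolism, 15 and 0. Heart markers did not share this order: their summed level was 10.9 FPKM in Plekhg5-deficient nerve 5 and between 11.9 and 17.7 FPKM in the others, with Tnni3 and Nppb the most abundant and 1 of 7 tested genes highest in Plekhg5-deficient nerve 5. None was called by limma, and 1 had an unadjusted p under 0.05: Tnnt2, cardiac troponin T, with 2.32, 3.71 and 3.50 FPKM in wild-type and 0.954, 0.671 and 1.57 FPKM in Plekhg5-deficient nerves, without overlap (log2 fold change -1.02, unadjusted p = 0.00462, adjusted p = 0.644 from limma). The cardiac defining marker Mybpc3 was at or below 0.0189 FPKM in all nerves. The summed level of smooth muscle markers, led by Acta2 and Tagln, was highest in wild-type nerve 5, at 1947 FPKM against 485.5 to 1076 FPKM elsewhere. Not every marker was highest there: 1 of the 10 was highest in Plekhg5-deficient nerve 5, against 22.6% of all genes. None was called by limma, and 0 had an unadjusted p under 0.05. Plekhg5-deficient nerve 5 also had the highest summed level of adipocyte markers, at 6803 FPKM against 961.2 to 3233 FPKM, led by Fabp4 and Cfd with 3600 and 1795 FPKM there. Of the 10 markers, 6 were highest there, against 22.6% of all genes, and 1 was at least 2-fold above every other nerve. Lep, leptin, was lowest there at 0.273 FPKM. The median log2 fold change was -0.48, with 0 called by limma and 1 (Lep, lower) at an unadjusted p under 0.05. Without overlap, 2 were lower in Plekhg5-deficient nerves, against 5.88% of all genes. The part of these other tissues in the muscle values was not tested.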

How the data were processed

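Poly(A) libraries of 6 sciatic nerves were made with the SENSE mRNA-Seq kit and sequenced on an Illumina NextSeq. The authors trimmed reads with Trim Galore 0.4.0, checked them with FastQC 0.10.1, mapped them to GRCm38 with STAR and deposited FPKM with 95% intervals for each gene and library from Cufflinks 2.2.1. Annotation release, strand setting, treatment of multi-mapped reads and depth: not given in the sources used here. Identifiers listed more than once (19) were summed. After division by median-of-ratios factors, genes averaging 0.1 FPKM or more in a genotype (21285) entered limma 3.58.1 (R 4.3.3) as log2(FPKM + 1), with genotype alone in the model, trended variance and Benjamini-Hochberg adjustment over these genes, called at 0.05. Fold changes on this scale understate changes of low genes. Pair ratios were compared by exact two-sided permutation (scipy 1.17.1).

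All members are counted, and values per nerve are given for those that the results turn on. Fold changes were fixed for a list of members, and 2 genes of highest mean per outside list are named, except 1 gene that is not reported here. Exceptions chosen after values were seen are Mybpc3, Tnnt2, Lep, Csrp3, Myf6, Ncam1, Chrng, Pax7 and the comparison of wild-type nerve 4 with Plekhg5-deficient nerve 2. Members, lists and tests were chosen with earlier results of these data known. Sequences came from RefSeq (GRCm38.p6), and shared windows of 50 bases from GENCODE transcripts. Alternatives were other pseudocounts, minimums, scalings, variance settings and references, a replicate block, and nerves left out.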

Additional observations from a re-analysis of the deposited data

How the results depend on the processing

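None of the 44 genes was called under any alternative. The number of genes called over the whole table was 6 higher and 2 lower. It was 2 and 0 with no minimum, 14 and 8 with array weights, and 0 and 0 with a replicate block over numbers 2 and 5. Lower genes numbered 1 with a pseudocount of 0.1, 1 with a minimum of 1 FPKM, 1 with a robust variance prior and 0 without both nerves numbered 5. With each nerve left out in turn, higher genes ranged from 0 to 8 and lower genes from 0 to 0. The median log2 fold change then ranged from -1.98 to 0.58 for all 44 genes, -0.29 to 2.09 for slow, -3.18 to 0.36 for fast, -1.42 to 0.52 for calcium handling and -2.16 to 0.69 for sarcomeric genes. The replicate block gave 0.21 for the sarcomeric genes. Nerves of equal number share only that number in the labels: deviations from the genotype means correlated at 0.07 for the nerves numbered 2 and 0.58 for those numbered 5. Wild-type and Plekhg5-deficient nerves of unlike number correlated at -0.52 to 0.46, so that these values do not establish a pairing.

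Of 259 values of 26 single genes with all nerves, 253 kept their direction. Myh2 was -0.30 and -0.043 with pseudocounts of 0.1 and 0.5 and -0.063 on FPKM as deposited, Myh3 -0.026 and Tnnt1 -0.22 with array weights, and Ryr1 0.018 with the block. Without both nerves numbered 5, Myh2 was -0.86, Myh3 -0.10, Tnnt1 -0.91 and Tnni1 -0.28. With each nerve left out in turn, 19 of the 26 genes changed direction, with log2 fold changes over these fits of Acta1 -3.30 to 0.43, Myh1 -2.16 to 0.61, Myh2 -1.35 to 1.54, Myh3 -0.12 to 0.31, Myh4 -3.74 to 0.20, Myh7 -0.074 to 2.13, Mylpf -3.08 to 0.50, Tnnt1 -0.72 to 2.05, Tnnt3 -3.38 to 0.39, Tnni1 -0.62 to 2.002, Tnni2 -3.36 to 0.40, Tnnc2 -3.42 to 0.18, Ckm -3.91 to 0.0097, Mb -2.86 to 0.066, Atp2a1 -3.28 to 0.49, Casq1 -1.28 to 0.46, Ryr1 -1.57 to 0.56, Pvalb -2.56 to 0.028 and Actn3 -3.07 to 0.44. Every tested pair kept its direction with any nerve left out. Under the other references, the genotype differences of 85 of 85 relative levels moved by less than the spread between nerves. Each reference shifts this difference by the same amount for every gene, so these are no separate checks. For Myh1 it went from 0.23 to 0.33 with Acta1 and 0.32 with the fast genes. Which genes lay without overlap did change with the reference. Plekhg5 was not called in any of the 6 fits that left out 1 nerve of either genotype (adjusted p of 0.0781 to 0.268 from limma), nor with no minimum, without both nerves numbered 5, or with the block (0.892). The cause of these shifts was not tested. Depth is unknown, so counting error could not be given.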

Other observations

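Genes of muscle precursors and of the endplate held values that belong to no comparison above. Myf6, a myogenic factor that persists in adult fibres, was 16.3, 1.58 and 10.5 FPKM in wild-type and 3.75, 0.278 and 82.2 FPKM in Plekhg5-deficient nerves, in the same order of nerves as Tnni2. Ncam1, an adhesion molecule also made by Schwann cells, ran from 5.49 to 10.5 FPKM and was lowest in Plekhg5-deficient nerve 5. Chrng, the fetal subunit of the acetylcholine receptor, was listed at 0 in all 6 nerves, and Pax7, which marks satellite cells, was at most 0.0566 FPKM. None of the 11 genes tested from this list was called by limma, and 0 had an unadjusted p under 0.05. Csrp3, a Z disc protein of slow and cardiac muscle named after its values were seen, was 0.0435, 0.130 and 4.67 FPKM in wild-type and 2.15, 0.193 and 33.2 FPKM in Plekhg5-deficient nerves, which overlapped (log2 fold change 1.42, adjusted p = 0.974 from limma).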
